A study of Mus musculus with 15 samples.

Results

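The genes described here encode 8 of the known islet autoantigens of type 1 diabetes, insulin and amylin not included. The set is Gad1, Gad2, Ptprn, Ptprn2, Slc30a8, G6pc2, Ica1 and Chga. They were chosen by name as known targets of the islet autoimmune response, by a rule that uses no measured value but with earlier results of these data known, and all 8 were found among the 48709 genes of the deposited count table. Bulk RNA-seq was performed on islets of untreated NOD females at 5 ages (4, 6, 8, 10 and 12 weeks), with 3 mice per age and 15 mice in all. The NOD mouse develops immune infiltration of the islets and autoimmune diabetes spontaneously, and the series follows the gradual build-up of this infiltrate. No other strain and no insulitis-free group was measured, so that age and infiltration cannot be told apart in these samples. Islets were released by collagenase digestion and picked by hand, and a sample holds every cell type of an islet, including any immune cells in it and any exocrine tissue carried along.

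Most islet autoantigens are proteins of the secretory apparatus of endocrine cells. Chromogranin A is a soluble cargo of the dense core granule that is cut into smaller peptides. IA-2 (Ptprn) and phogrin (Ptprn2) are catalytically inactive relatives of receptor tyrosine phosphatases that span the granule membrane, and ZnT8 (Slc30a8) loads the insulin granule with zinc. IGRP (G6pc2) is a glucose-6-phosphatase of the beta cell endoplasmic reticulum, ICA69 (Ica1) is a membrane-bending protein of the early secretory pathway, and the glutamate decarboxylases (Gad1 and Gad2) make the transmitter GABA. Antibodies against several of these proteins precede the disease in people, whereas peptides of IGRP and chromogranin A are recognised by diabetogenic T cells of NOD mice.

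Total counts ranged from 25407492 to 41616275 per mouse (median 28004882). No 2 mice of the same age agreed within sampling noise, since the chi-square per degree of freedom between them was 15.9 to 127. The endocrine identity of the samples was clear at every age, as the 9 beta cell markers (the insulin genes included) summed to 239000-267000 CPM (library-size-scaled counts with TMM factors) at 4 weeks and to 122000-154000 CPM at 12 weeks. Over the same interval the summed level of 17 leukocyte markers went from 41.9-221 CPM to 1860-2190 CPM, and all 17 were higher at 12 weeks (adjusted p under 0.05). At 4 weeks the B cell marker Cd79b was at 0 counts in replicate 3 and at most 12 in any mouse. Cd79a, another B cell marker of the list, had 125 to 179 counts at that age. The 10 acinar enzymes varied between 1590 and 18800 summed CPM over all mice, and 0 of 10 passed the test between 4 and 12 weeks. Between these ages 8 of 9 beta cell, 5 of 5 alpha cell and 1 of 3 delta and PP cell markers were lower and 0 higher, 6 of 6 mesenchymal and 3 of 4 endothelial markers were higher, and of 7 neuron and Schwann cell markers 2 were higher and 3 lower. Since the samples are bulk tissue, fewer cells of a type and less RNA per cell cannot be told apart in any value below.

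The levels of the 8 transcripts spanned more than 4 orders of magnitude, from chromogranin A to Gad2. On the deposited TPM scale, which divides by transcript length, Chga had a median over the 15 mice of 10200 TPM (range 6230-11200) and was at percentile 100 of all expressed genes. G6pc2 followed with 1860 TPM (1370-2280) and Slc30a8 with 657 TPM (355-757). Thus the beta cell phosphatase and the zinc transporter were both above the pair of inactive phosphatase relatives of the granule membrane, Ptprn with 318 TPM (231-374) and Ptprn2 with 177 TPM (118-200). Ica1 had 43.4 TPM (29.8-52.4) and Gad1 18.7 TPM (12.0-26.7). Gad2, the gene of the GAD65 antigen, was close to the detection limit with 0.223 TPM (0.109-0.351), which rested on 7 to 26 counts per mouse. In 15 of 15 mice each gene exceeded the next one in this order. The ranges of neighbours overlapped only for Slc30a8 and Ptprn. The order of Ptprn and Ptprn2 depended on the length used, because per kilobase of the longest coding sequence Ptprn2 (223 CPM) passed Ptprn (212 CPM), while the other 6 neighbours kept their order.

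**Figure D1:**
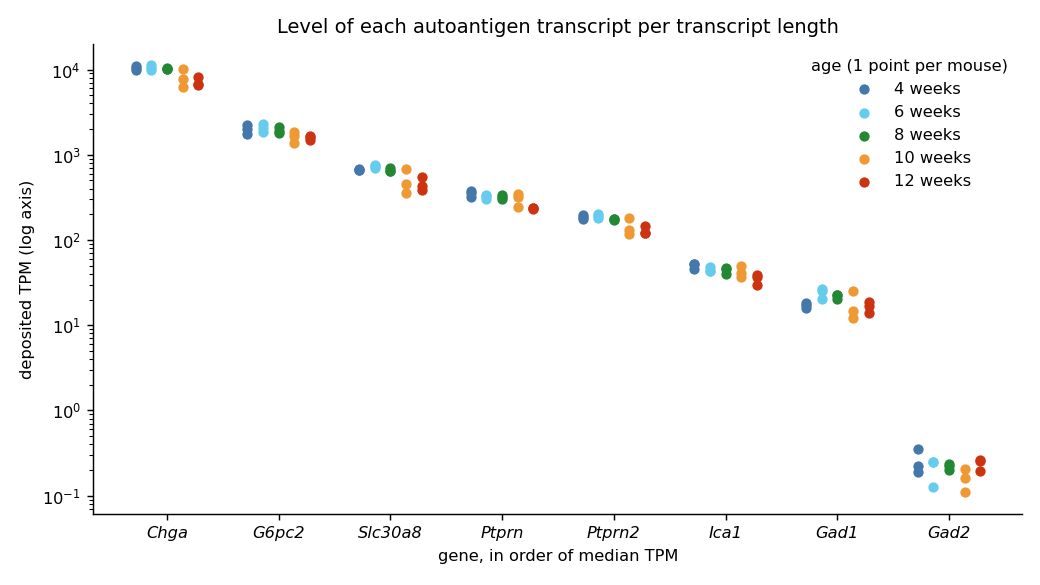
Deposited TPM (log axis) of each autoantigen transcript, 1 point per mouse, coloured by age, with 3 mice at each of 5 ages and genes in order of their median. The median over all mice is 10200 TPM for Chga, 18.7 TPM for Gad1 and 0.223 TPM for Gad2.

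Reads of the 8 genes could largely be told apart from those of other genes. On mouse build GRCm38, Chga spans chr12:102554969-102565027 on the plus strand. Its transcript with the longest coding sequence has 8 exons, any untranslated ones included. G6pc2 (chr2:69211073-69227841, plus strand) and Slc30a8 (chr15:52295553-52335798, plus strand) have 5 and 8 exons counted in this way. Ptprn lies at chr1:75247027-75264502 on the minus strand and the much longer Ptprn2 at chr12:116485720-117276849 on the plus strand, with 23 such exons each. Ica1 is at chr6:8630527-8778488 (minus strand), Gad1 at chr2:70553072-70602014 and Gad2 at chr2:22622205-22693874 (both plus strand). No 50-base stretch was shared between the transcripts of Gad1 and Gad2 or between those of Ptprn and Ptprn2, and at most 2.15% of a gene's 50-base stretches occurred in any other gene. Genes overlapping them held few reads, the most being Gm5441 inside Ptprn2 with 453 counts over all mice against 287924 for Ptprn2.

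The 250 bases upstream of the start site of a few of these genes are shown as a description. RefSeq (GRCm38.p6) lists 10 start sites for 7 of the 8 genes. Shown are the first listed promoters of the cargo gene Chga (chr12:102554691-102554940, plus strand), of Ptprn (chr1:75264209-75264458, minus strand) and of Ica1 (chr6:8778485-8778734, minus strand). These are 3 of the 6 genes called as lower at 12 weeks. That of Gad1 (chr2:70561879-70562128, plus strand), which was not called between the age extremes, is shown as well. The promoters of Ptprn2 and G6pc2, which were also called as lower, and of Gad2, which was not called, are not shown. Capitals mark matches, on either strand, to the motifs searched, namely TGACG (the core of a cyclic AMP response element, which is also contained in the full element TGACGTCA), TATAAA (which positions the start of some genes), CAGATG (an E-box bound by NeuroD proteins), TAATTA (a homeodomain core) and GGGCGG (a GC box).
Chga: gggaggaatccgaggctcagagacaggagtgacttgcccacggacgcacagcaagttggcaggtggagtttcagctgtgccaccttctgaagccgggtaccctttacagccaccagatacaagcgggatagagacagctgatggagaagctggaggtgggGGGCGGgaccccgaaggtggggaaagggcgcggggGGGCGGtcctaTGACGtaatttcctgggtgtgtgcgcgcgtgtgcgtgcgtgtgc
Ptprn: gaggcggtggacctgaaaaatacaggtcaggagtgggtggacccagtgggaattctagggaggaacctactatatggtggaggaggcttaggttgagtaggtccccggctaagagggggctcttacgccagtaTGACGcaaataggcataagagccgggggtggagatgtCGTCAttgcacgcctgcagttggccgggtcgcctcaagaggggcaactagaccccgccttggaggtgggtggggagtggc
Ica1: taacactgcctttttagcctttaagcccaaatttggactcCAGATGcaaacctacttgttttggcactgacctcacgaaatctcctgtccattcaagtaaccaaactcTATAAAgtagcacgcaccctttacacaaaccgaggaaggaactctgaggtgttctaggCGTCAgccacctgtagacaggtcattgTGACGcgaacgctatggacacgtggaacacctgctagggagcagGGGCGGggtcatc
Gad1: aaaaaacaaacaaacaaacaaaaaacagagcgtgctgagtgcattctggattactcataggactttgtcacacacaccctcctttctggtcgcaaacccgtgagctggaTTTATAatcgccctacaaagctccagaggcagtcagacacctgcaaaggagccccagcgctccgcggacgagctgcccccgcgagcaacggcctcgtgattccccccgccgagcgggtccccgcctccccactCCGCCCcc
TGACG was found once upstream of Chga, at -44 to -40 from the start, and in 2 copies each upstream of Ptprn and Ica1. The first promoter of Gad2 also held it, and that of Gad1 did not. It was absent from the promoter of Ptprn2, from both starts of G6pc2 and from the second starts of Ptprn and Ica1, so that it was found at the first start of 3 of the 5 called genes with a listed promoter. Over all 32851 mouse promoters of this length, 17.8% held TGACG and 1.5% the full element, which no promoter of the 8 genes held. The promoter of Gad1 held TATAAA at -141 to -136 on the reverse strand and a GC box at -8 to -3, motifs found in 12.4% and 32.7% of all promoters. CAGATG (14.4% of all promoters) occurred upstream of Gad2, of Ica1 and, in 2 copies, at the second start of G6pc2, while TAATTA (4.8%) occurred at none. These matches describe the letters only, since binding was not measured, and any part of them in the age differences was not tested.

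Between the age extremes, 6 of the 8 autoantigen transcripts were lower at 12 than at 4 weeks in edgeR's quasi-likelihood test (Benjamini-Hochberg adjusted p under 0.05), and 0 were higher. They were Ptprn, Slc30a8, Ptprn2, Chga, Ica1 and G6pc2, and they fell by 38.5% to 47.9%. Gad1 and Gad2 did not pass the test. As background, 53.5% of the 16554 genes tested were called between these ages, 27.2% as lower at 12 weeks. The median log2 fold change of the 8 genes was -0.90, beside -0.05 for all genes. The summed level of the 8 transcripts was 14200-15200 CPM at 4 weeks and 7040-8970 CPM at 12 weeks, values set mainly by Chga. For 7 of the 8 genes the 3 mice of 12 weeks did not overlap those of 4 weeks, as was the case for 64.2% of all genes.

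In the joint test over the 5 ages, 7 of the 8 genes differed between ages (56% of all genes), with adjusted p from 0.000888 for Ptprn2 to 0.0157 for Gad1. Gad2 did not pass, with an adjusted p of 0.204. None of the single 2-week steps reached significance for any of the 8 genes. Between 4 and 6 weeks 0 of 8 were called (background 0.0906% of genes). Here 4 of the 8 had a lower mean (47.6% of all genes) and 4 a higher mean, 2 did not overlap between the ages (17.6%), and 1, Gad1, had an unadjusted p under 0.05 (8.67%). Between 6 and 8 weeks all 8 means were lower at the older age (52.1% of all genes) and 4 did not overlap (19.3%), but 0 were called (background 0%) and 0 had an unadjusted p under 0.05 (18%).

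The largest step lay between 8 and 10 weeks, with a median log2 fold change of the 8 genes of -0.47. All 8 means were lower again (50.5% of all genes), 5 had an unadjusted p under 0.05 (37.9%) and 3 did not overlap (32.7%). At adjusted p from 0.0513 to 0.295, 0 were called (background 16.8%), whereas DESeq2 called 4 (18.3% of all genes). Between 10 and 12 weeks 7 of the 8 means were lower (50.5%), 0 were called (background 0%), 0 did not overlap (9.82%), and Ptprn had an unadjusted p under 0.05 (7.52% of all genes). At the 3 steps other than that from 8 to 10 weeks, DESeq2 called 0 of the 8 genes.

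**Figure D2:**
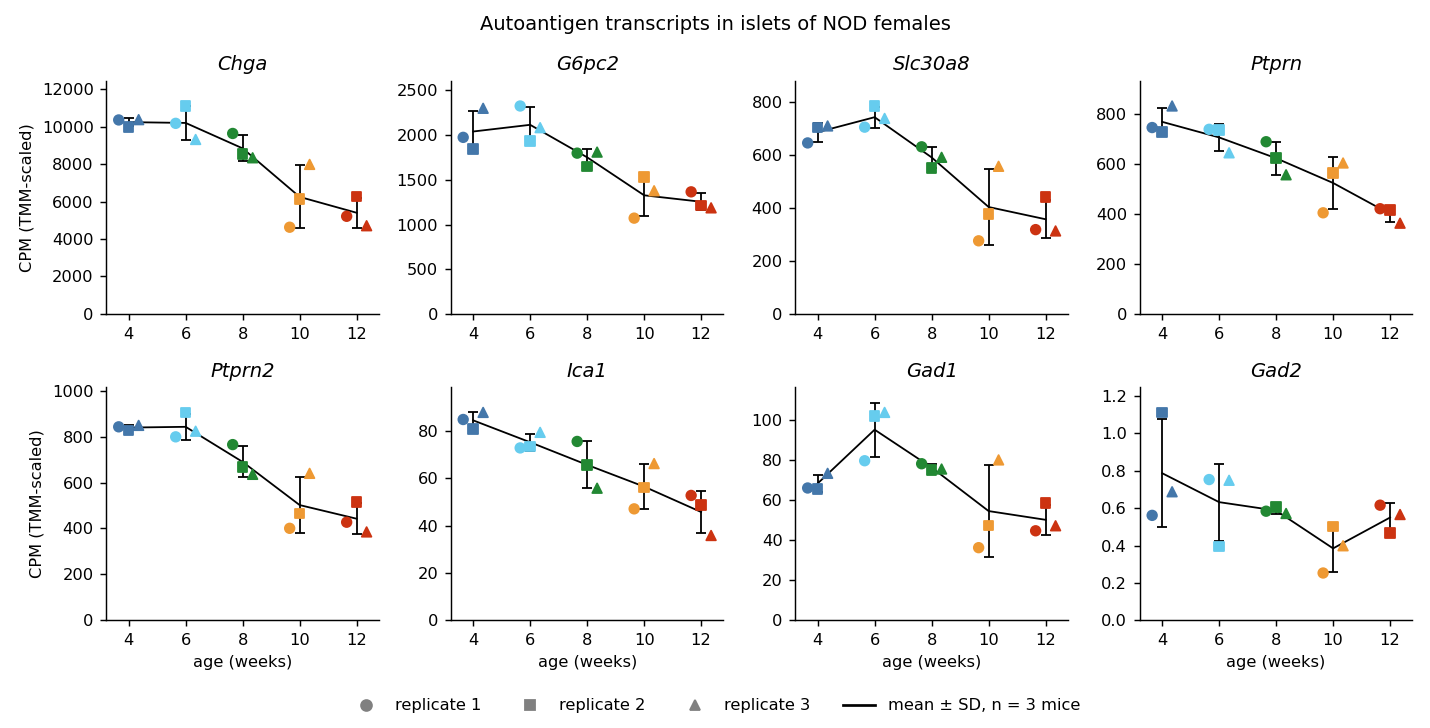
TMM-scaled CPM of the 8 transcripts (linear axes starting at 0) against age in weeks, 1 symbol per mouse with the replicate number as its shape, and lines with bars for the mean ± SD of 3 mice. In 7 of the 8 panels the mice of 12 weeks lie below all mice of 4 weeks, Gad1 is highest at 6 weeks, and the SD is largest at 10 weeks for Chga, Slc30a8, Ptprn, Ptprn2 and Gad1.

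Chga, the most abundant of the 8, had means of 10200 CPM at 4 and 6 weeks, 8840 CPM at 8 weeks, 6250 CPM at 10 weeks and 5400 CPM at 12 weeks. In single mice it was measured at 10353, 9988 and 10369 CPM at 4 weeks, 10172, 11098 and 9310.2 CPM at 6 weeks, 9632, 8545 and 8334 CPM at 8 weeks, 4628, 6132 and 7980.1 CPM at 10 weeks, and 5212, 6279 and 4707 CPM at 12 weeks (replicates 1, 2 and 3 at each age). All 6 mice of 10 and 12 weeks were below every younger mouse, while the mice of 12 weeks lay within the range of those of 10 weeks. From 4 to 12 weeks Chga fell by 47.3%, a log2 fold change of -0.92 ± 0.17 (SE, adjusted p = 0.000977).

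Chromogranin B, the other major granin of the endocrine granule, did not pass the test. Chgb was measured at 2004, 1839 and 2085 CPM at 4 weeks and at 2587, 1339 and 1411 CPM at 12 weeks, so that 1 mouse of 12 weeks was above and the other two were below all mice of 4 weeks. Its log2 fold change was -0.15 ± 0.20 (SE, adjusted p = 0.541). Without replicate 1 of 12 weeks, the mouse with the highest Chgb level, the change was -0.52 (adjusted p = 0.00306), and without replicate 2 it was 0.02 (adjusted p = 0.956). The ratio of Chga to Chgb on the TPM scale was 7.24 to 7.91 at 4 weeks and 2.93 to 6.82 at 12 weeks, and the ranges did not overlap. The log2 ratio (CPM) differed by -0.72 between these ages (two-sided exact permutation p = 0.1, the smallest that 3 against 3 mice allow, and 0.15 when adjusted over 3 gene pairs), but by -0.39 without replicate 1 of 12 weeks.

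The transcripts of the granule membrane proteins IA-2 and phogrin were both lower at 12 than at 4 weeks. Ptprn was measured at 746, 729 and 833 CPM at 4 weeks, 739, 736 and 645 CPM at 6 weeks, 689, 624 and 557 CPM at 8 weeks, 405, 564 and 604 CPM at 10 weeks, and 421, 416 and 363 CPM at 12 weeks. Its mean was lower at each successive age, and every mouse of 12 weeks was below every mouse of 4, 6 and 8 weeks. Ptprn fell by 47.9% from 4 to 12 weeks (log2 fold change -0.94 ± 0.14 SE, adjusted p = 0.00032), the smallest adjusted p among the 8 genes.

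Ptprn2 was measured at 842, 826 and 849 CPM at 4 weeks, 799, 905 and 823 CPM at 6 weeks, 765, 668 and 636 CPM at 8 weeks, 401, 465 and 639.9 CPM at 10 weeks, and 427, 515 and 385 CPM at 12 weeks. All mice of 8 weeks were below those of 4 and 6 weeks, and replicate 3 of 10 weeks was still at the level of 8 weeks. Ptprn2 fell by 47.3% (log2 fold change -0.92 ± 0.15 SE, adjusted p = 0.000549). The log2 ratio of Ptprn to Ptprn2 in the same mouse was -0.13 ± 0.09 at 4 weeks and -0.14 ± 0.15 at 12 weeks (SD, n = 3, exact permutation p = 1, where 3 against 3 mice cannot go below 0.1). On the TPM scale the ratio was 1.91 to 2.45 at 10 weeks, above every mouse of 6 weeks (1.59 to 1.87) and of 8 weeks (1.77 to 1.89). It overlapped the ranges of 4 weeks (1.78 to 1.99) and 12 weeks (1.64 to 2), and its course between these ages was not tested. Resp18, a secretory protein related to the luminal part of IA-2, fell by 0.62 on the log2 scale (adjusted p = 0.000513), although its log2 fold change was 0.23 (adjusted p = 0.0554) with libraries scaled to endocrine genes, whereas the active receptor phosphatase Ptpra was at -0.03 (adjusted p = 0.643, 95% interval -0.16 to 0.09).

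Slc30a8 had nearly the same log2 fold change as Ptprn, with a larger standard error. It was measured at 647, 704 and 711 CPM at 4 weeks, 706, 786 and 739 CPM at 6 weeks, 632, 552 and 592 CPM at 8 weeks, 276, 378 and 558 CPM at 10 weeks, and 319, 441 and 314 CPM at 12 weeks. The mice of 8 weeks were below those of 4 and 6 weeks without overlap, and at 10 weeks the highest mouse exceeded the lowest by 2.02 times, compared with 1.10 times at 4 weeks. From 4 to 12 weeks Slc30a8 fell by 47.9% (log2 fold change -0.94 ± 0.20 SE, adjusted p = 0.00217).

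The other zinc transporters of this family were found on both sides of 0. Of 9 relatives (Slc30a1 to Slc30a7, Slc30a9 and Slc30a10), 7 passed the filter on low counts. The intracellular transporters Slc30a4, Slc30a5, Slc30a6 and Slc30a9 were lower at 12 weeks with log2 fold changes of -0.45 to -0.36, but with plain library totals none of the 4 passed (-0.21 to -0.11, adjusted p from 0.0564 to 0.259). When libraries were scaled to endocrine genes, all 4 were called as higher (0.38 to 0.48), but below the all-gene median of 0.79. Under that scaling 80.3% of all genes were called. Slc30a7 was at -0.03 (adjusted p = 0.814), and Slc30a1, the exporter of the plasma membrane, had a log2 fold change of 0.30 (adjusted p = 0.0303). Slc30a1 did not pass without replicate 3 of 4 weeks (adjusted p = 0.125), replicate 2 of 12 weeks (0.0734) or replicate 3 of 12 weeks (0.0839). Slc30a2 was called as higher on few reads, with 0, 5 and 0 counts at 4 weeks and 56, 11 and 10 counts at 12 weeks, and it did not pass without replicate 1 or 3 of 4 weeks or replicate 1 of 12 weeks (adjusted p 0.0819, 0.0877 and 0.139) or with a replicate block (0.0505). Slc30a3, with 0 to 8 counts, was not tested. Slc30a10 was not tested either, with 225 counts in replicate 1 of 12 weeks, 38 in replicate 2 of 6 weeks and 0 to 4 in the other mice.

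G6pc2 showed the smallest change among the 6 genes called. It was measured at 1975, 1846 and 2299.5 CPM at 4 weeks, 2325, 1936 and 2083 CPM at 6 weeks, 1798, 1647 and 1809.7 CPM at 8 weeks, 1071, 1531 and 1378 CPM at 10 weeks, and 1365, 1212 and 1186 CPM at 12 weeks. Every mouse of 10 weeks was below every mouse of 8 weeks, and the mice of 12 weeks lay within the range of those of 10 weeks. G6pc2 fell by 38.5% from 4 to 12 weeks (log2 fold change -0.70 ± 0.13 SE, adjusted p = 0.000978). The ubiquitous relative G6pc3 was at -0.11 (adjusted p = 0.318), and the liver and kidney enzyme G6pc was not tested because it had 0 to 3 counts in all mice but replicate 1 of 12 weeks, which had 59.

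Ica1 was among the 3 genes, with Chga and Ptprn, whose mean was lower at each successive age. It was measured at 84.7, 80.7 and 87.7 CPM at 4 weeks, 72.7, 73.3 and 79.3 CPM at 6 weeks, 75.5, 65.6 and 55.7 CPM at 8 weeks, 47.0, 56.1 and 66.1 CPM at 10 weeks, and 52.7, 48.6 and 35.8 CPM at 12 weeks. The mice of 4 weeks were above those of 6 weeks without overlap, and those of 12 weeks were below all mice of 8 weeks. Ica1 fell by 45.8% (log2 fold change -0.88 ± 0.15 SE, adjusted p = 0.00062). Its relative Ica1l was at -0.38 (adjusted p = 0.101, 95% interval -0.79 to 0.02), and passed without replicate 1 of 10 weeks (adjusted p = 0.0391).

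Gad1, the gene of the GAD67 enzyme, had its highest level at 6 weeks. It was measured at 65.9, 65.4 and 73.2 CPM at 4 weeks, 79.5, 102 and 104 CPM at 6 weeks, 78.0, 75.0 and 75.4 CPM at 8 weeks, 36.2, 47.2 and 79.9 CPM at 10 weeks, and 44.6, 58.5 and 47.1 CPM at 12 weeks. The mice of 6 weeks were above all mice of 4 weeks (17.6% of all genes did not overlap) and of 8 weeks (19.3%). Those of 8 weeks were also above those of 4 weeks, and those of 12 weeks were below all 3 of these ages. Between 4 and 12 weeks 64.2% of all genes did not overlap, and for the other pairs of ages the share is not given here. At 10 weeks replicate 3 was above every mouse of 8 weeks, whereas the other two were below every mouse of 4 weeks.

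The difference of Gad1 between 4 and 6 weeks was 0.48 ± 0.22 on the log2 scale (SE, unadjusted p = 0.0482, adjusted p = 0.567), and that between 4 and 12 weeks was -0.45 ± 0.22 (adjusted p = 0.104, 95% interval -0.92 to 0.03). With 4 and 12 weeks fitted alone, the latter passed the threshold with a log2 fold change of -0.39 (adjusted p = 0.0217 in the quasi-likelihood test and 0.00987 in edgeR's exact test). It also passed without replicate 1 of 10 weeks (adjusted p = 0.044) or replicate 3 of 10 weeks (adjusted p = 0.0119). Against 6 weeks, a comparison added after the values had been seen, Gad1 at 12 weeks was lower by 47.3% (log2 fold change -0.92 ± 0.22 SE, adjusted p = 0.00396), but this was -0.15 (adjusted p = 0.407) with libraries scaled to endocrine genes. In that comparison 7 of the 8 genes were called, beside 55.1% of all genes.

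Gad2 could be measured only coarsely. Its counts were 15, 26 and 19 at 4 weeks, 19, 15 and 19 at 6 weeks, 16, 17 and 16 at 8 weeks, 7, 20 and 12 at 10 weeks, and 19, 14 and 18 at 12 weeks. On the CPM scale the mice of 10 weeks were below those of 4 and of 8 weeks, and all other pairs of ages overlapped. The log2 fold change from 4 to 12 weeks was -0.51 ± 0.35 (SE, adjusted p = 0.239, 95% interval -1.26 to 0.25), so that a fall as large as that of Chga was within the interval at this depth. The level of Gad1 exceeded that of Gad2 by 45.3 to 199 times on the TPM scale. Of the other decarboxylases of the family, Csad was at -0.04 (adjusted p = 0.799), and Gadl1, with 0 to 8 counts, was not tested.

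The decline was then set against the endocrine content of the same mice. The mean log2 CPM of 12 endocrine reference genes (transcription factors such as Neurod1, Isl1 and Pax6 and granule proteins such as Scg2 and Scg3) was 9.05 ± 0.03 at 4 weeks, 8.99 ± 0.07 at 6 weeks, 8.80 ± 0.16 at 8 weeks, 8.34 ± 0.26 at 10 weeks and 8.21 ± 0.15 at 12 weeks (SD, n = 3). Of the 12, 11 were lower at 12 than at 4 weeks, with Chgb not called. The leukocyte list went from 0.81 ± 1.41 to 6.03 ± 0.20 over the same ages, and the part of either in the results above was not tested.

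**Figure D3:**
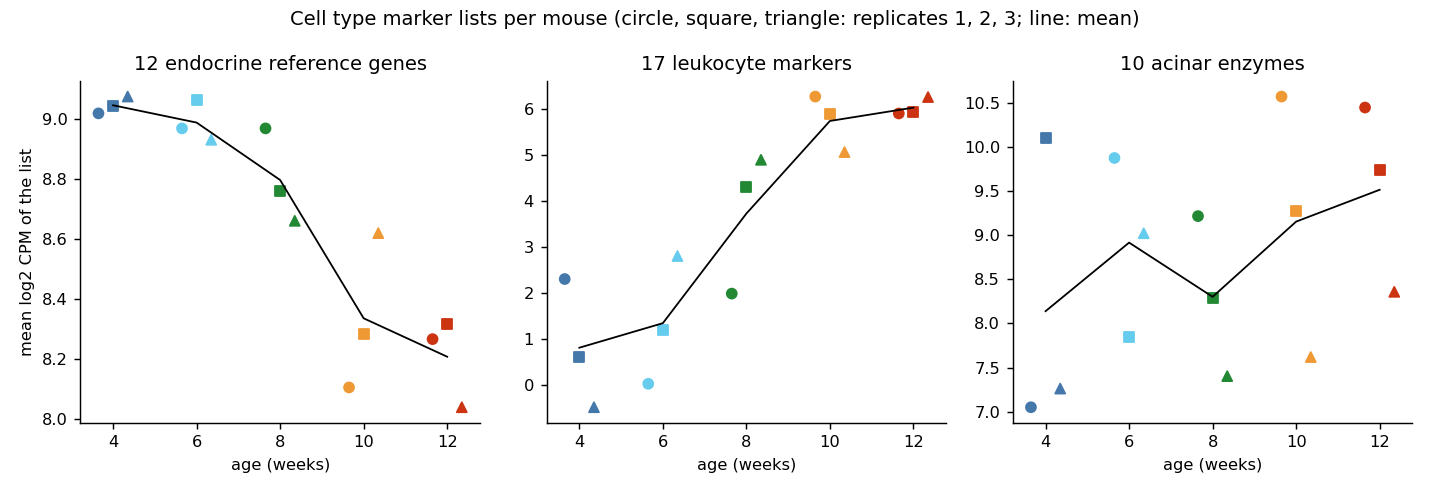
Mean log2 CPM of 12 endocrine reference genes, 17 leukocyte markers and 10 acinar enzymes in each mouse against age in weeks, with a line through the means of 3 mice and a separate axis range in each panel. The endocrine mean goes from 9.05 to 8.21, the leukocyte mean from 0.81 to 6.03, and the acinar mean varies widely between mice of the same age.

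Relative to the endocrine reference of the same mouse, the differences between 4 and 12 weeks were small for the 6 genes called. They were -0.10 for Chga, -0.11 for Ptprn, -0.10 for Ptprn2, -0.12 for Slc30a8, -0.06 for Ica1 and 0.14 for G6pc2 on the log2 scale, with exact permutation p from 0.2 to 0.6 and overlapping groups in every case. The share of all genes without overlap on this scale was not computed. With libraries scaled to the same reference, the all-gene median log2 fold change was 0.79. Among the 8 genes only Gad1 had no overlap, with a difference smaller than that median. Its relative level was -2.96 ± 0.07 at 4 weeks and -2.57 ± 0.19 at 12 weeks (SD, n = 3), a difference of 0.39 (two-sided exact permutation p = 0.1, the smallest possible here, and 0.4 when adjusted over the 8 genes). The Gad2 difference was 0.41 (exact p = 0.3). Set directly against Chga, the log2 ratio of Gad1 was -7.23 ± 0.08 at 4 weeks and -6.75 ± 0.11 at 12 weeks (SD, n = 3, exact permutation p = 0.1, adjusted p = 0.15 over 3 gene pairs).

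**Figure D4:**
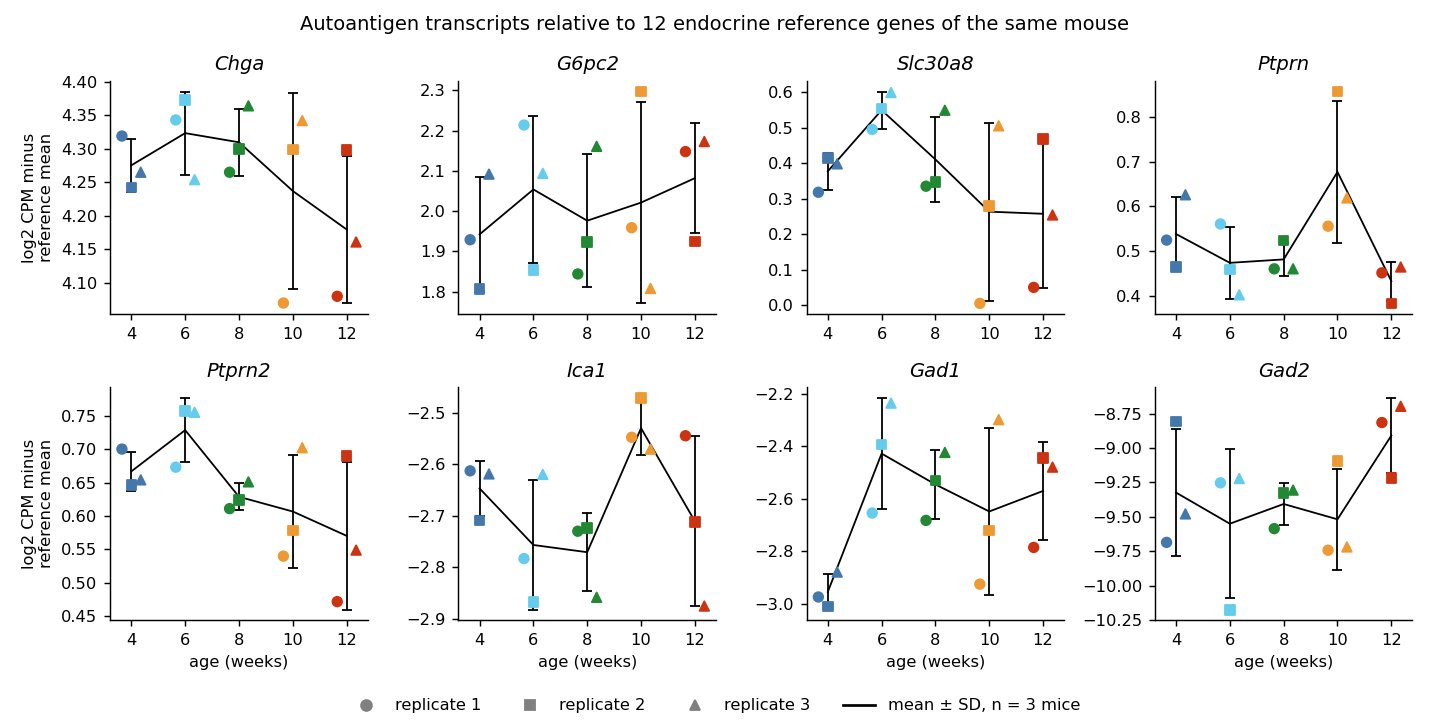
log2 CPM of each autoantigen transcript minus the mean log2 CPM of 12 endocrine reference genes of the same mouse, against age in weeks, with 1 symbol per mouse, lines with bars for the mean ± SD of 3 mice, and a separate axis range in each panel. Gad1 is the only gene whose mice of 12 weeks lie apart from those of 4 weeks, at -2.57 against -2.96.

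The direction of the smaller changes depended on the scaling. With libraries scaled so that the endocrine reference stayed level, the all-gene median of the log2 fold change moved to 0.79. Between 4 and 12 weeks 1 of the 8 genes was then called, beside 80.3% of all genes. It was Gad1, with a log2 fold change of 0.39 (adjusted p = 0.034), below that median. G6pc2 and Gad2 also changed sign (0.14 and 0.33), and the other 5 ranged from -0.11 to -0.06. With plain library totals, which moved that median to 0.20, the same 6 genes were called as with TMM, beside 50.6% of all genes. Their log2 fold changes ranged from -0.70 to -0.46. Other log2 fold changes in the text are on the TMM scale, and those of all relatives below 0 (Resp18, Slc30a4, Slc30a5, Slc30a6, Slc30a7, Slc30a9, Chgb, Csad, Ptpra, Ica1l and G6pc3) turned positive under the endocrine scaling.

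Across all 18 family relatives of the 8 genes, 14 passed the filter, of which 5 were lower, 3 higher and 6 not called between 4 and 12 weeks (median log2 fold change -0.13). These counts depended on the scaling, with 1 lower and 5 higher under plain library totals, and 0 lower and 13 higher under the endocrine scaling. Of all genes, 53.5% were called with TMM, 50.6% with library totals and 80.3% under the endocrine scaling. The last were nearly all higher (13136 of 13288), so that the shift of the relatives went with that of all genes. The highest change with ample reads was that of Ptpre, a receptor phosphatase expressed in many blood cells, which was measured at 3.04 to 5.16 CPM at 4 weeks and 15.5 to 20.4 CPM at 12 weeks (log2 fold change 2.19 ± 0.32 SE, adjusted p = 0.000328).

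**Figure D5:**
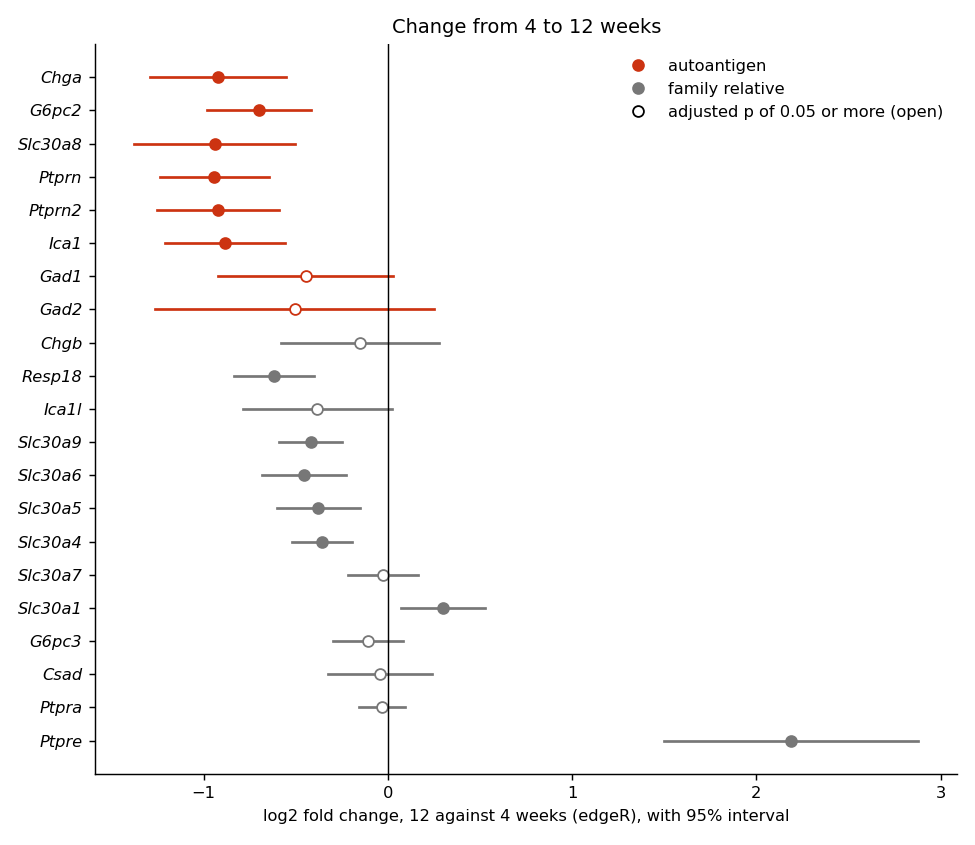
log2 fold change from 4 to 12 weeks (edgeR) with its 95% interval for the 8 autoantigen genes (red) and 13 relatives (grey, Slc30a2 not drawn), filled where the adjusted p was under 0.05. The intervals of 6 autoantigen genes lie below 0, that of Gad1 reaches 0.03, and Ptpre stands at 2.19.

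Genes of GABA handling, the pathway of the glutamate decarboxylases, were mostly low in these islets. Of 12 such genes 9 were tested, and between 4 and 12 weeks 4 were lower, 1 was higher and 4 were not called. The enzymes that degrade GABA were lower, Abat by 0.67 (adjusted p = 0.0043) and Aldh5a1 by 0.79 on the log2 scale (adjusted p = 0.00607), although neither was called under the endocrine scaling (0.16 and 0.05), where 0 genes were lower and 5 higher. With plain library totals 2 were lower and 2 higher. Of all genes, 53.5% were called with TMM, 50.6% with library totals and 80.3% under the endocrine scaling. The receptor subunit Gabra4 had a log2 fold change of 0.71 (adjusted p = 0.0998), and was called as higher with library totals (0.94, adjusted p = 0.03), under the endocrine scaling (1.53, adjusted p = 0.00113) and in edgeR's exact test on both ages alone (0.75, adjusted p = 0.0481). The vesicular GABA transporter Slc32a1 had 0 counts in 15 of 15 mice, and Slc6a13, with 0 to 14 counts, was not tested.

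Genes of the dense core granule, in which several of the autoantigens reside, fell together with them. Of 16 cargo and processing genes, 14 were lower at 12 weeks (27.2% of all genes) and 0 higher. Their median log2 fold change was -0.86, beside -0.90 for the autoantigens and -0.05 for all genes. Under the endocrine scaling 1 was lower and 4 were higher, where 80.3% of all genes were called. Chgb, Scg2, Scg3, Scg5, Pcsk1n and Syt7 are also reference genes, so that their values under that scaling are partly fixed by construction. The neuropeptide precursor Vgf had the lowest value (-1.38 ± 0.22 SE, adjusted p = 0.000439, but -0.53 and 0.0912 under the endocrine scaling), followed by Cpe, the carboxypeptidase that trims prohormones (-1.12 ± 0.14 SE, adjusted p = 0.000227). At the other end stood Chgb and Cadps2, a priming factor of granule release (-0.35 ± 0.11 SE, adjusted p = 0.0198), which was at 0.48 under the endocrine scaling. Cadps2 did not pass without replicate 1 or 2 of 4 weeks or replicate 1 or 3 of 12 weeks (adjusted p from 0.0541 to 0.0726), with library totals (-0.11, adjusted p = 0.441) or in edgeR's exact test (-0.30, adjusted p = 0.0601). Among the 12 endocrine reference genes, the transcription factors Insm1 (-1.06) and Nkx2-2 (-1.01) had the lowest log2 fold changes, and Chgb (-0.15) and Syt7 (-0.66) the highest.

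Of 16 other reported autoantigens of the islet, 11 were lower, 1 higher and 4 not called between 4 and 12 weeks, with a median log2 fold change of -0.61. With library totals 8 were lower and 2 higher, and under the endocrine scaling 1 was lower and 7 were higher. Of all genes, 53.5% were called with TMM, 50.6% with library totals and 80.3% under the endocrine scaling, the last with an all-gene median of 0.79. The lowest values were those of Cpe (-1.12) and of the insulin gene Ins1 (-0.90 ± 0.17 SE, adjusted p = 0.000935), the latter at -0.07 (adjusted p = 0.492) under the endocrine scaling. The gene called as higher was S100b, a calcium-binding protein of Schwann cells and other glia, with 15 to 27 counts at 4 weeks and 40 to 50 counts at 12 weeks (log2 fold change 0.91 ± 0.30 SE, adjusted p = 0.0217). Without any 1 of replicates 1 and 2 of 4 weeks or replicates 2 and 3 of 12 weeks it did not pass, with adjusted p from 0.0564 to 0.0801. Gfap, another glial gene, had a log2 fold change of 0.71 (adjusted p = 0.111), and was called as higher with library totals (0.95, adjusted p = 0.0487), under the endocrine scaling (1.54, adjusted p = 0.00407) and in edgeR's exact test (0.76, adjusted p = 0.0385). A pair of further genes was picked after the values had been seen. Tspan7, a membrane protein of the secretory pathway, fell by 44.9% with the granule genes (adjusted p = 0.000365), whereas the mitochondrial chaperone gene Hspd1 was at 0.03 (adjusted p = 0.865, 95% interval -0.23 to 0.28). Under the endocrine scaling Tspan7 was at -0.03 (adjusted p = 0.695) and Hspd1 was called as higher (0.88, adjusted p = 0.00118).

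Mice of the same age differed in the autoantigen transcripts together. After subtraction of each age mean, the 21 pairs among the 7 genes other than Gad2 correlated across the 15 mice with Pearson r from 0.25 to 0.96 (median 0.72), and the 7 pairs with Gad2 with r from -0.04 to 0.45. These points share a library and its scaling, and the values are given as a description. The SD of the CPM was largest at 10 weeks for Chga, Slc30a8, Ptprn, Ptprn2 and Gad1. At that age replicate 1 had the lowest level of all 8 genes and replicate 3 the highest of 6, and the highest mouse exceeded the lowest by 1.41 times for Ica1 to 2.21 times for Gad1. In the same mice the mean log2 CPM of the leukocyte markers was 6.27 for replicate 1, 5.89 for replicate 2 and 5.07 for replicate 3, and the part of this difference in the spread was not tested. Without replicate 3 of 10 weeks, 5 of the 8 genes were called as lower at 10 than at 8 weeks, beside 33.3% of all genes, and without replicate 1 or 2 of 10 weeks 0 of 8 and 0% of all genes were called.

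The genes whose log2 CPM was most like that of each autoantigen gene were ranked by Pearson correlation over all 15 mice. For Chga these were Aplp1 (r = 0.992), 0610040J01Rik (0.992) and Ptprn2 (0.991), and for Ptprn2 they were Cul4a, Aplp1 and Klhdc10 (0.994 to 0.995). Ptprn was most like Tceal8, Rpn2 and Tmem38a (0.982 to 0.985), Slc30a8 like Mtcl1, Steap2 and Sgpp2 (0.985 each), Ica1 like Entpd3, Tmed10 and Tm9sf3 (0.978 to 0.981), and G6pc2 like Samd10, Kbtbd3 and Def8 (0.961 to 0.974). The genes most like Gad1 were Slc24a2, Sez6l and Jph3 (0.956 to 0.968). Gad2 had the weakest matches, Perm1, Tmc7 and Sfxn4 (0.803 to 0.860), as its values rest on few counts. These correlations include the differences between ages and are a description over 15 samples.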

How the data were processed

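Islet RNA of 15 NOD females (3 at each of 5 ages) was sequenced as read pairs from polyA-enriched libraries. Per the paper's methods, the authors trimmed, aligned and counted reads in CLC Genomics Workbench with default settings, and the submitters' processing notes give the build mm10. The deposited table holds unnormalized counts per gene and, from the authors, TPM, RPKM and CPM columns. The deposited CPM columns add up to different totals in different samples, so they were treated as a score and left unused. The RPKM values deposited by the authors served only as an alternative for the order of levels between genes. TPM served for levels between genes and for ratios of gene pairs in the same mouse.

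Counts were tested with edgeR 4.0.16 in R 4.3.3 (quasi-likelihood, TMM, 1 mean per age, filterByExpr, 16554 of 48709 genes kept), with Benjamini-Hochberg adjustment over all genes tested and calls at adjusted p under 0.05. Here p-values measure the spread between mice. CPM were computed on TMM-scaled libraries. log2 CPM used a prior count of 2. Ratios and levels relative to the reference were compared by two-sided exact permutation tests. DESeq2 1.42.0, other scalings, no filter, the 2 ages alone, a replicate block and leaving out each mouse were alternatives. Scripts were tested on simulated data. Named were all 8 genes and their relatives, the extremes of each other list, and the 3 most similar genes per member. The members and lists were chosen with earlier results of these data known. Intervals are at 95%. Promoters came from RefSeq, where Slc30a8 had no entry. Values of a few listed genes are not reported here, although the list counts include them.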

Additional observations from a re-analysis of the deposited data

How the results depend on the processing

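Chga, G6pc2, Slc30a8, Ptprn, Ptprn2 and Ica1 were lower at 12 than at 4 weeks with an adjusted p under 0.05 under every alternative except the scaling to the endocrine reference. Otherwise 6 or 7 of the 8 genes were called, beside 38% to 54.6% of all genes. Under the endocrine scaling 1 of the 8 was called between 4 and 12 weeks (80.3% of all genes) and 1 between 8 and 10 weeks (50.2%). Between 6 and 12 weeks (comparison added after seeing the data) 0 were called (77.2%). In the joint test over ages 0 were called, where the construction holds the endocrine genes level. Gad1 became 0.391, Gad2 0.334 and G6pc2 0.139 (log2 fold changes from 4 to 12 weeks), and the relatives and listed genes that changed sign were Csad 0.793, Resp18 0.228, Ptpra 0.811, Slc30a4 0.48, Slc30a5 0.457, Slc30a6 0.382, Slc30a7 0.807, Slc30a9 0.422, G6pc3 0.732, Ica1l 0.443, Chgb 0.68, Aldh5a1 0.047, Abat 0.161, Cadps2 0.481 and Syt7 0.167. The calls over all genes between 4 and 12 weeks split into 4357 higher of 8858 with TMM, 6556 of 8376 with library totals and 13136 of 13288 under the endocrine scaling. Between 8 and 10 weeks they were 1391 of 2776, 1830 of 2319 and 8258 of 8302.

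Genes near 0 changed sign more often. With library totals, Csad was at 0.2, Ptpra at 0.212, Slc30a7 at 0.215, G6pc3 at 0.136 and Chgb at 0.089, and with DESeq2 size factors in edgeR Csad was at 0.014, Ptpra at 0.025 and Slc30a7 at 0.031. DESeq2 itself gave 0.014, 0.024 and 0.03 for these 3 genes, and both tests on 2 ages alone gave 0.008, 0.018 and 0.024. Without 1 mouse at a time Csad ranged from -0.095 to 0.02, Ptpra from -0.079 to 0, Slc30a7 from -0.088 to 0.042, Chgb from -0.523 to 0.015 and Hspd1 from -0.053 to 0.08.

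For single steps, DESeq2 called 4 of the 8 genes between 8 and 10 weeks, where leaving out 1 mouse gave 0 to 5, and edgeR's exact test on 2 ages called 1 between 4 and 6 weeks. Genes called in all between 8 and 10 weeks numbered 2776, but 0 with 2 ages alone, 140 in the exact test, and 0 to 5612 without 1 mouse (0 without replicate 1 or 2 of 8 or of 10 weeks). Between 4 and 6 weeks the 15 genes called became 141, 265 and 244 with 2 ages alone, the exact test and DESeq2, and 0 to 69 without 1 mouse. Between 6 and 8 weeks the exact test called 157, DESeq2 547 and the fit without replicate 1 of 8 weeks 797, in place of 0, and between 10 and 12 weeks the exact test called 7 and DESeq2 12.

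Replicate numbers did not pair the mice, since over 30 pairs of same-numbered mice of different ages the correlation of deviations was -0.643 to 0.509 (median -0.088). With a replicate block, 6 of the 8 genes were called between 4 and 12 weeks (50.3% of all genes) and 7 between 6 and 12 weeks (51.7%). At each single step 0 were called (at most 0.0302% of all genes), while the calls over all genes between 8 and 10 weeks went from 2776 to 0.

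Ica1 relative to the endocrine reference ranged from -0.146 to 0.018 without 1 mouse, and the difference of Gad1 was 0.302 (exact p = 0.2) against the beta cell list and 0.442 without Chgb. The ratio of Ptprn to Ptprn2 ranged from -0.067 to 0.076. Per coding length 6 of 7 neighbours kept their order. Depth limited Gad2, at 7 to 26 counts per mouse. The causes were not tested.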
